A study of Mus musculus with 19 samples.

Results

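Genes of the neural ectoderm were examined in cystic EBs (embryoid bodies, hollow aggregates that mouse ES cells form when cultured in suspension) and in the yolk sac and liver tissues they were compared with. The 9 genes Pax6, Pax3, Sox1, Zic1, Zic2, Nes, Tubb3, Map2 and Ncam1 were taken by their symbols, and all of them were in the tables, as 17 of the 30455 RefSeq transcripts (23337 gene symbols in all). Map2 is listed there under its older symbol Mtap2 and was matched by its accession. Each gene is described by the transcript with the highest mean count, and the genes were taken by name and not by level.

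RNA-seq covered 11 libraries. Cystic EBs came from ES cells of C57Bl/6x129 crosses, clone A9 (XY) and clone JN (XX), with 1 library of each clone after 10 and after 15 days without LIF (d10 and d15). The FVB tissues, each a pool of a litter, were visceral yolk sac endoderm (ysE) at E9.25 in 2 libraries and at E12.5 in 1, E9.25 visceral yolk sac (VYS) mesoderm in 2, and E12.5 fetal liver in 2. The yolk sac layers were parted by hand after Dispase treatment, and the mesoderm kept its vessels and basement membrane. Each genotype of cystic EB is thus 1 clone. Clone and library protocol cannot be told apart, because A9 libraries (and liver) were made with a ScriptSeq kit and JN libraries (and the E9.25 tissues) with a dUTP method, while the E12.5 ysE library was made by a protocol without strand information used for no other. Mouse strain also differs between all cystic EBs and all tissues of the RNA-seq. The bisulfite libraries, described below, came from tissues and ES clones of CAST and FVB crosses. The VYS chromatin sample for the histone mark H3K4me3 came from FVB mice.

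Neural ectoderm is the part of the embryonic germ layer ectoderm that folds into the neural tube and gives rise to the brain, the spinal cord and, at its border, the neural crest. Its cells first switch on Sox1 and other patterning transcription factors, then divide as progenitors whose cytoskeleton contains nestin, and finally become neurons with their own tubulin and microtubule-associated proteins. The visceral endoderm does not arise from this lineage. In bulk RNA, a smaller share of expressing cells and less RNA per expressing cell cannot be told apart.

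The libraries held 40453779 to 169981821 counts. Afp, the fetal serum protein of yolk sac endoderm and fetal liver, stood at 6071 to 35558 RPKM in ysE, 1396 to 2471 in liver and 25.8 to 688 in cystic EBs. Kdr, a receptor of vessel endothelium, was at 47.0 to 47.1 RPKM in VYS mesoderm and at 0.051 to 2.58 in ysE. Mesoderm also held 700 to 1255 RPKM of Afp. The pluripotency factor Pou5f1 was at 39.1 to 76.8 RPKM in cystic EBs and at 0 to 0.130 in every tissue library.

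Start regions of 4 of the genes are shown because they span the range of what was measured there. Sox1 had no H3K4me3 peak near its start in VYS, and Zic1 and Nes had one. Tubb3 had mostly methylated reads within 1 kb of its start in every tissue. Whether the CpGs read there lie in the stretch shown was not examined. Each run is the 250 bases before the annotated start (RefSeq, GRCm38.p6), 5′ to 3′ on the gene's strand, with CpG sites in capitals. They lie at chr8:12395269-12395518 on the plus strand (Sox1), chr9:91365769-91366018 on the minus strand (Zic1), chr3:87970843-87971092 on the plus strand (Nes) and chr8:123411303-123411552 on the plus strand (Tubb3).
Sox1: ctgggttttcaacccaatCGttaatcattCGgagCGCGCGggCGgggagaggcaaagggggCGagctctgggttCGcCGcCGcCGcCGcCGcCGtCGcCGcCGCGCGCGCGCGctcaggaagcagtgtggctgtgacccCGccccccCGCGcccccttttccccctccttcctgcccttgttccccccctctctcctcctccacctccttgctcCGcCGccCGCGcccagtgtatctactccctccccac
Zic1: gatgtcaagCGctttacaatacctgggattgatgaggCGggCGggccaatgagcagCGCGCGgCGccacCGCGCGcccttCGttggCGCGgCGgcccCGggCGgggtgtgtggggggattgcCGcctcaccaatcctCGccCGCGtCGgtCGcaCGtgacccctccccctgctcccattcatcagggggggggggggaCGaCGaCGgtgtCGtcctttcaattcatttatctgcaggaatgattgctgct
Nes: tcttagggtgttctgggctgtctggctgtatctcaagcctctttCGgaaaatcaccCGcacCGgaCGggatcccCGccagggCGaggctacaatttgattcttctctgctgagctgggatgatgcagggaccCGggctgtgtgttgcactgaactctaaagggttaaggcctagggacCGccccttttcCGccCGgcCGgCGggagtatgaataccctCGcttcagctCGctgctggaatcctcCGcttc
Tubb3: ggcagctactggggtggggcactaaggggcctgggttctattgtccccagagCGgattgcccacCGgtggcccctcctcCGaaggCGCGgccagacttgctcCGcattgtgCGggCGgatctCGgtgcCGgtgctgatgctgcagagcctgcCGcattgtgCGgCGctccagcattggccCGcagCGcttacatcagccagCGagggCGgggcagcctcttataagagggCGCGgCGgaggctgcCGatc
Against a median of 6 CpG sites in the same stretch of 32812 annotated starts, Sox1 held 29, Zic1 27, Tubb3 21 and Nes 15. The motif CCAAT on either strand occurred 1 time before Sox1 and Tubb3, 2 times before Zic1 and not before Nes, and 33.8% of all starts hold it. GGGCGG on either strand, which itself contains a CpG, occurred 3 times before Sox1 and 2 times before each of Zic1, Nes and Tubb3, and 32.7% of all starts hold it. The reference table also held starts of Pax6 (2 of them, 15 CpG sites each) and Map2 (34 CpG sites). Pax3, Zic2 and Ncam1 had none in it.

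All 9 genes had reads in every cystic EB library, and every cystic EB library was above every ysE library for each of them, with 7 of the 9 past the test for E12.5 ysE and 8 for E9.25 ysE (given below). Their summed level was 22.4 and 21.5 RPKM in A9 (d10 and d15) and 34.3 and 21.99 RPKM in JN. E12.5 ysE summed to 0.501 RPKM, the E9.25 ysE libraries to 1.24 and 1.36 RPKM, and the others to 10.1 and 11.8 RPKM (VYS mesoderm) and 10.4 and 21.3 RPKM (liver). The sums of mesoderm and liver were made almost wholly of 2 genes. Nes and Ncam1 gave 85.1% and 91.4% of the sum in mesoderm and 90.2% and 94.1% in liver, but 37.2% to 60.4% in cystic EBs.

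**Figure D1:**
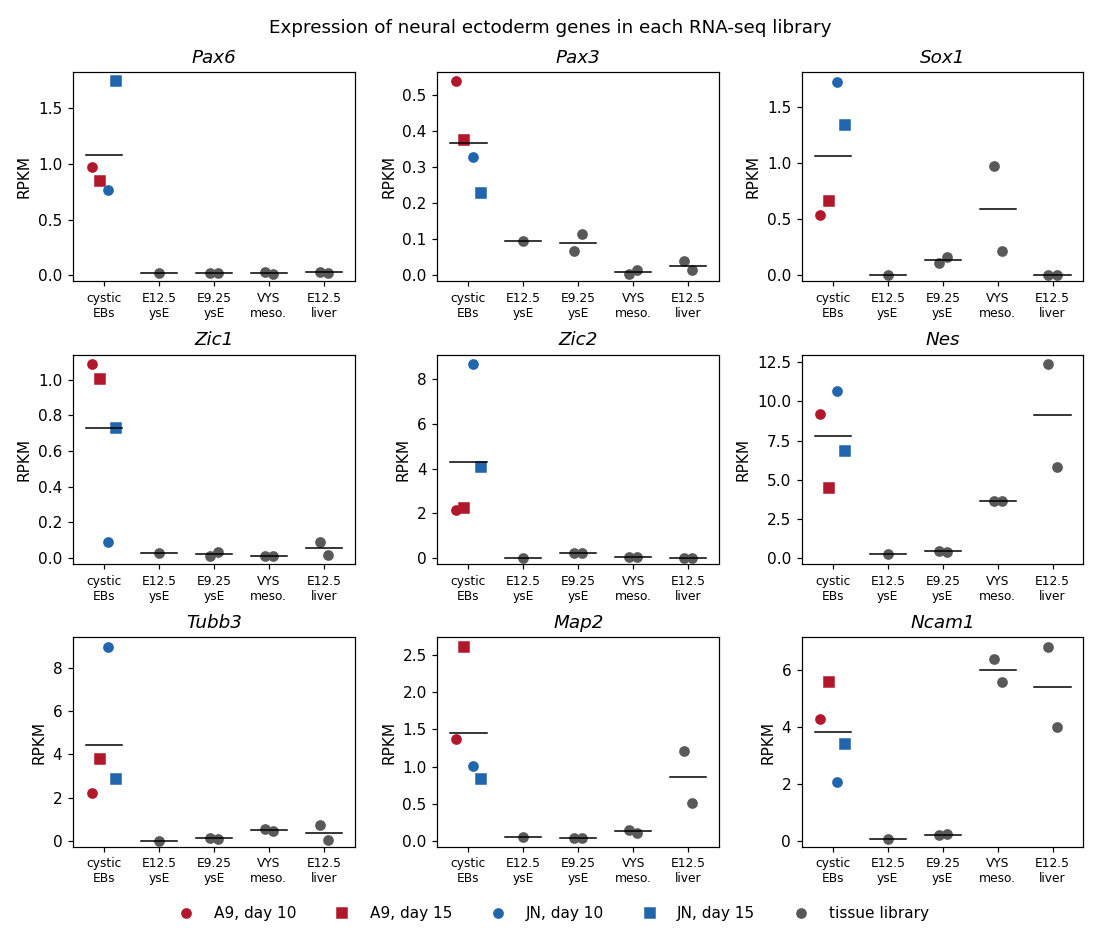
RPKM of the 9 genes (y axis, linear, a separate range for each gene) in all 11 libraries (x axis, by tissue). Each point is 1 library, red for clone A9 and blue for clone JN, circles for d10 and squares for d15, and horizontal lines are group means. Pax6, Pax3, Zic2 and Tubb3 were above every other tissue in all 4 cystic EB libraries, while Nes and Ncam1 were as high in liver.

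The paired-box factor Pax6, which patterns the neural tube, eye and forebrain, was found in cystic EBs and close to absent elsewhere. In clone A9 it stood at 0.971 RPKM at d10 and 0.850 at d15, and in clone JN at 0.765 and 1.74. The tissues were at 0.025 RPKM (E12.5 ysE), 0.018 and 0.026 (E9.25 ysE), 0.034 and 0.016 (mesoderm) and 0.031 and 0.023 (liver). The groups did not overlap, and the 4 tissues could not be put in order because their libraries lay within the same narrow range. The log2 fold change of cystic EBs was 5.13 ± 0.60 (SE, 4 against 2 libraries) over E9.25 ysE with an adjusted p of 0.000163, 5.29 ± 0.61 over mesoderm with 0.000449 and 4.93 ± 0.60 over liver with 0.000258, from the quasi-likelihood test of edgeR (Benjamini-Hochberg over all transcripts), as in all tests below. E12.5 ysE held only 3 Pax6 counts, which gives a ratio of CPM (counts scaled to library size) of 48.0 with a 95% counting interval of 16.4 to 233 (the edgeR fold, on the scale of the fits, with the TMM library factors of edgeR, was 33.1, adjusted p = 0.00190). In these and all tissue tests below, the 4 cystic EB libraries counted as independent replicates, with no term for clone. They are d10 and d15 of clones A9 and JN, so the p-values do not measure the spread between clones alone. Without mesoderm replicate A the fold change over mesoderm was 5.87 on the log2 scale. The lncRNA Pax6os1 and the gene Elp4 overlap Pax6, and how the counting used strand is not given in the sources used here.

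Pax3, the paired-box factor of the dorsal neural tube, the neural crest and the muscle precursors of somites, had the lowest mean of the 9 genes in cystic EBs (0.367 RPKM), although Zic1 was lower in d10 JN. A9 had 0.536 RPKM at d10 and 0.375 at d15, and JN had 0.328 and 0.227. The tissues had 0.096 RPKM (E12.5 ysE), 0.067 and 0.114 (E9.25 ysE), 0.005 and 0.015 (mesoderm) and 0.040 and 0.014 (liver). Every cystic EB library was above every tissue library, and ysE was above mesoderm and liver without overlap. Pax3 passed the threshold against liver (log2 3.41 ± 0.74, edgeR adjusted p = 0.00494) and mesoderm (4.99 ± 0.81, 0.00236). It did not pass against E9.25 ysE (1.57 ± 0.64, edgeR adjusted p = 0.0652) or E12.5 ysE (1.57 ± 0.88, 0.183). Over E9.25 ysE it passed with DESeq2 (54.8% of transcripts called) and in an edgeR fit of only the groups compared (46.1%). The value over mesoderm was 4.38 without mesoderm replicate A and 6.14 without replicate B, when the mesoderm group held 2 Pax3 counts, and that over liver 4.42 without liver replicate A. Of 6 skeletal muscle genes, the factors Myf5, Myf6, Myod1, Myog and Pax7 were at 0 to 0.053 RPKM in the cystic EB libraries, whereas Des, a filament protein of all muscle, was at 8.57 to 15.9 (0.496 to 1.46 in the ysE libraries, 2.22 and 8.78 in mesoderm). Des was the 1 muscle gene of the 4 past the filter that was called over each stage of ysE, and none was called over mesoderm, while 2 of the 4 were lower than in liver. Of all transcripts 10.8%, 27.1% and 13.9% were higher over E12.5 ysE, E9.25 ysE and mesoderm, and 20.9% lower than in liver. In cystic EBs the highest values of the somite factors Meox1 and Tcf15 were 1.39 and 5.61 RPKM. Of 5 presomitic and somitic genes 4 passed the filter. Of these, 1 was higher over E12.5 ysE, 4 over E9.25 ysE and 2 over mesoderm, and none was lower. Against liver the gene T (log2 8.04, edgeR adjusted p = 0.00101) and Tcf15 (3.76, 0.0138) were higher and Tbx6 (-2.56, 0.000631) lower. Meox1 did not pass against liver (-0.86, edgeR adjusted p = 0.404). The part of muscle and somite cells in the Pax3 level was not tested.

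Sox1, an SRY-related factor and one of the first marks of neural fate, was not detected in E12.5 ysE or in liver and was present in every other library. JN had more, with 1.72 RPKM at d10 and 1.34 at d15, than A9 with 0.533 and 0.658. E9.25 ysE had 0.114 and 0.163 RPKM, and the mesoderm libraries differed widely, with 0.969 in replicate A and 0.218 in replicate B. The mesoderm range overlapped that of the cystic EBs. With the tissue's total set to 3 counts, on the TMM scale of the fits, Sox1 was at least 47.7-fold higher in cystic EBs than in ysE of E12.5 (edgeR adjusted p = 0.00501) and at least 189-fold higher than in liver (0.000556). By plain CPM these bounds were 67.9 and 206. Over E9.25 ysE the log2 fold change was 2.48 ± 0.75 (edgeR adjusted p = 0.0232), and over mesoderm it was 0.73 ± 0.68 (0.440). The call over E9.25 ysE ended when either ysE library was left out (edgeR adjusted p = 0.136 without replicate A and 0.0954 without replicate B). Sox1 shares its locus with the lncRNA Sox1ot.

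The zinc-finger factors Zic1 and Zic2 act in the dorsal neural tube and in the closure of the neural plate. Zic1 stood at 1.09 RPKM (d10) and 1.001 (d15) in A9 and at 0.091 and 0.727 in JN, so the d10 JN library was far below the other cystic EB libraries. The tissues were at 0.028 RPKM (E12.5 ysE), 0.013 and 0.032 (E9.25 ysE), 0.010 and 0.013 (mesoderm) and 0.092 and 0.016 (liver). One liver library thus matched the lowest cystic EB library. Zic1 passed the threshold over E9.25 ysE (log2 4.54 ± 1.16, edgeR adjusted p = 0.00964), mesoderm (5.75 ± 1.26, 0.00923) and liver (3.38 ± 1.08, 0.0291), and did not over E12.5 ysE (4.33 ± 1.66, 0.0640). Each of these calls leaned on single libraries. The edgeR adjusted p was 0.0794 over E9.25 ysE without ysE replicate A (5.40 on the log2 scale and still called without replicate B), 0.0860 and 0.0805 over mesoderm without replicate A or B, and 0.161 over liver without liver replicate B (0.0501 without d15 JN). Without liver replicate A the log2 value over liver was 5.19. Zic1 and Zic4 overlap, and Zic4 itself was at 0 to 0.085 RPKM in all libraries.

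Zic2 was more abundant, at 2.16 RPKM (d10) and 2.22 (d15) in A9 and 8.66 and 4.05 in JN. No Zic2 read was counted in E12.5 ysE or liver, mesoderm had 0.032 and 0.043 RPKM, and E9.25 ysE had 0.220 and 0.235. The order from cystic EBs to E9.25 ysE to mesoderm held without overlap. On the TMM scale Zic2 was at least 142-fold higher than in E12.5 ysE (edgeR adjusted p = 0.00141) and at least 561-fold higher than in liver (0.000169), and by plain CPM the bounds were 201 and 612. Its log2 fold change was 3.78 ± 0.69 over E9.25 ysE (edgeR adjusted p = 0.00240) and 6.68 ± 0.83 over mesoderm (0.000940). The d10 JN library raised these values. Without it the log2 values were 3.16 and 6.05, and the TMM bounds were 91.6 for E12.5 ysE and 363 for liver. That library was also the highest in the 5 pluripotency genes, with a summed 152 RPKM against 67.9 to 90.7 in the other cystic EB libraries. Their part in the Zic2 level was not tested.

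Nestin (Nes), the intermediate filament of neural progenitors that endothelial and muscle precursors also make, was the most abundant of the 9 genes in 3 of 4 cystic EB libraries. It stood at 9.22 RPKM at d10 and 4.49 at d15 in A9 and at 10.6 and 6.84 in JN. Liver had 12.4 and 5.82 RPKM, mesoderm 3.62 and 3.61, E9.25 ysE 0.453 and 0.416, and E12.5 ysE 0.250. The liver libraries overlapped the cystic EBs, and all cystic EB libraries were above mesoderm. Nes was higher in cystic EBs than in ysE of E12.5 (log2 4.5955 ± 0.67, edgeR adjusted p = 0.000695) and of E9.25 (3.71 ± 0.45, 0.000201). Against liver (-0.56 ± 0.36, edgeR adjusted p = 0.226) and mesoderm (0.98 ± 0.39, 0.0843) it did not pass. Over mesoderm it passed with JN alone, made by the same dUTP method (1.15, edgeR adjusted p = 0.0232), with DESeq2 (1.03, adjusted p = 0.0375) and without d15 A9 (1.19, edgeR adjusted p = 0.0293).

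Tubb3, the beta-tubulin of neurons, was highest in the d10 JN library. JN had 8.95 RPKM at d10 and 2.85 at d15, and A9 had 2.20 and 3.77. No read was counted in E12.5 ysE, and the other tissues had 0.117 and 0.104 RPKM (E9.25 ysE), 0.551 and 0.455 (mesoderm) and 0.710 and 0.046 (liver). All cystic EB libraries were above all tissue libraries, and the liver libraries differed from each other by more than the other pairs. On the TMM scale Tubb3 was at least 86.2-fold higher than in E12.5 ysE (edgeR adjusted p = 0.00915), or 122-fold by plain CPM, and at least 56.6-fold on the TMM scale without d10 JN, and its log2 fold change was 4.89 ± 1.1009 over E9.25 ysE (0.00527), 3.03 ± 0.98 over mesoderm (0.0438) and 3.21 ± 0.99 over liver (0.0256). The call over E12.5 ysE, at an FDR of 1%, ended without d10 A9 (edgeR adjusted p = 0.0102), d15 A9 (0.0112) or d15 JN (0.0133). That over E9.25 ysE ended without ysE replicate B (edgeR adjusted p = 0.0537), and its log2 value was 4.29 without d10 JN. The call over mesoderm ended without d10 JN (edgeR adjusted p = 0.0643, log2 2.42), d15 JN (0.0505), mesoderm replicate A (0.189) or mesoderm replicate B (0.216). Over liver the log2 value was 6.29 without liver replicate A, 2.31 without replicate B (edgeR adjusted p = 0.0766) and 2.60 without d10 JN. With A9 alone, the clone that shares the ScriptSeq protocol with liver, it was 2.67 (0.1004). Beta-tubulin genes resemble each other in sequence, and how reads that match several genes were counted is not given in the sources used here.

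Map2, a microtubule-associated protein of dendrites, had 1.37 RPKM at d10 and 2.61 at d15 in A9 and 1.01 and 0.828 in JN. Liver had 1.20 and 0.515 RPKM and overlapped cystic EBs, whereas mesoderm (0.152 and 0.103), E12.5 ysE (0.046) and E9.25 ysE (0.033 and 0.035) lay below. Cystic EBs exceeded E12.5 ysE by 4.63 ± 0.98 on the log2 scale (edgeR adjusted p = 0.00512), E9.25 ysE by 4.97 ± 0.70 (0.000458) and mesoderm by 3.41 ± 0.64 (0.00453). The last call ended without mesoderm replicate B (edgeR adjusted p = 0.0589). Against liver the difference was 0.44 ± 0.54 (edgeR adjusted p = 0.521).

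Ncam1, a cell adhesion molecule of neurons that muscle, heart and mesenchyme also carry, had its highest levels outside the cystic EBs. Mesoderm had 6.40 and 5.59 RPKM and liver 6.83 and 4.01, beside 4.28 and 5.57 in A9 and 2.08 and 3.39 in JN. For the chosen transcript both mesoderm libraries were above all cystic EB libraries, only narrowly over d15 A9 (5.593 and 5.573 RPKM), and liver overlapped the cystic EBs. For the other Ncam1 transcripts d15 A9 lay within the mesoderm range (6.292 against 7.214 and 6.285 RPKM) or above it (4.353 against 4.232 and 3.877). E9.25 ysE had 0.209 and 0.231 RPKM and E12.5 ysE 0.056, far below. Cystic EBs exceeded E12.5 ysE by 5.72 ± 0.74 (log2, edgeR adjusted p = 0.000373) and E9.25 ysE by 3.68 ± 0.46 (0.000221), and were below liver by a log2 value of -0.83 ± 0.36 (0.0883) and below mesoderm by -0.77 ± 0.36 (0.137) without passing the threshold. With JN alone, prepared by the same dUTP method as mesoderm, the log2 difference from mesoderm was -1.28 and passed (edgeR adjusted p = 0.0123).

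**Figure D2:**
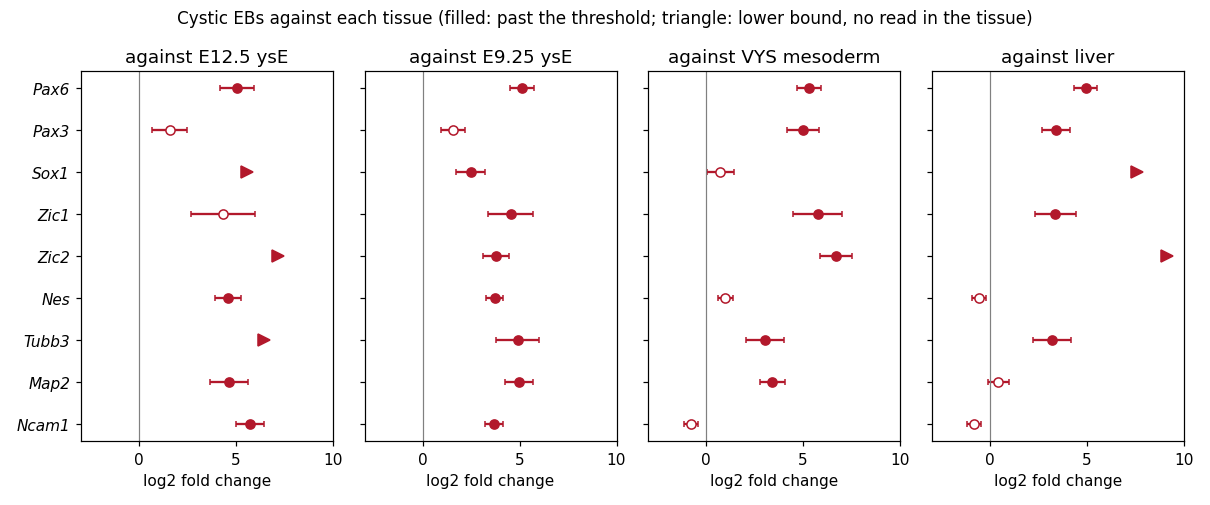
Log2 fold change of cystic EBs over each tissue (x axis) for the 9 genes (y axis). Bars are 1 SE, derived from the fold change and the F statistic of edgeR's test. Filled points passed the threshold, open points did not, and triangles are lower bounds on the TMM scale, with the tissue set to 3 counts, where the tissue had no read. In E12.5 ysE the Pax6 point rests on 3 counts. All values over ysE lie above 0, while those of Nes and Ncam1 over liver lie below 0 and are open.

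Counted together, 7 of the 9 genes passed over E12.5 ysE at an FDR of 1%, all higher in cystic EBs, where 10.8% of the 24858 transcripts tested were higher and 23.3% differed in either direction, and the exceptions were Pax3 and Zic1. That tissue is 1 library, so the spread behind these p-values comes from the other groups and is assumed to hold for it. Against E9.25 ysE, at an FDR of 5% as in the comparisons that follow, 8 were higher (all but Pax3), where 27.1% of transcripts were higher, 23.2% lower and 50.3% either. Of the 9 genes, 6 were higher than in liver, where 24.6% of transcripts were higher, 20.9% lower and 45.4% either (not Nes, Map2 and Ncam1), and 6 were higher than in mesoderm, where 13.9% were higher, 15% lower and 28.9% either (not Sox1, Nes and Ncam1). With JN alone 8 of the 9 differed from mesoderm, 7 higher and Ncam1 lower, all but Sox1, where 37.7% of transcripts differed. With A9 alone 5 were higher than in liver (not Tubb3), where 44% differed. None of the 9 was lower with all 11 libraries in the fit. Ncam1 was lower than in liver with replicate letters as a block and E12.5 ysE left out (log2 -0.84, edgeR adjusted p = 0.0390), where 48.2% of transcripts differed, and lower than in liver and mesoderm without d15 A9 (edgeR adjusted p = 0.0187 and 0.0421). The median log2 fold change of the genes was 5.05 over E12.5 ysE, 3.78 over E9.25 ysE, 3.38 over liver and 3.41 over mesoderm, against 0.42, 0.17, 0.20 and 0.03 over all transcripts tested. With genes absent from a tissue set to their lower bound the medians were the same. The comparisons share the cystic EB libraries and are not independent. Each also takes d10 and d15 of a clone as independent libraries, which they are not.

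Without any test, all 4 cystic EB libraries lay above every library of E12.5 ysE and of E9.25 ysE for all 9 genes, a pattern that 49.9% and 43.6% of transcripts tested showed. For mesoderm this held for 7 of 9 genes (not Sox1 and Ncam1) against 29.4% of transcripts, and for liver for 5 of 9 (not Nes, Zic1, Ncam1 and Map2) against 39.4%. Fitting only cystic EBs and the single E12.5 ysE library left 2 genes past the 1% threshold, Nes and Ncam1, where 8.3% of transcripts passed, with edgeR adjusted p-values of 0.0112 to 0.0246 for the 5 that were lost. Leaving out mesoderm replicate B left 3 genes called over mesoderm and 10.2% of transcripts. Fitting only cystic EBs and liver left 4 genes higher than in liver, with Tubb3 and Zic1 lost at edgeR adjusted p-values of 0.0589 and 0.0581 (37.6% of transcripts called), and 4 were also called without liver replicate B (26.9%).

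Within the yolk sac, where the layers differ by lineage, 4 of the 9 genes differed between mesoderm and E9.25 ysE, where 30.6% of transcripts tested did. Nes (log2 2.74 ± 0.46, edgeR adjusted p = 0.00194) and Ncam1 (4.45 ± 0.50, 0.000348) were higher in mesoderm. Pax3 (-3.43 ± 0.80, edgeR adjusted p = 0.0104) and Zic2 (-2.90 ± 0.74, 0.0183) were lower. Vessel genes were high in the same mesoderm libraries, with a summed 156 and 144 RPKM over Pecam1, Cdh5, Kdr, Tek and Emcn (5.23 and 7.26 in E9.25 ysE). The 5 collagen and fibroblast genes summed to 1272 and 1173 (35.3 and 58.7), though Pdgfra among them was at 8.26 and 4.80 (4.28 and 4.86). The 5 erythroid genes summed to 42091 and 32458 (821 and 986). The part of such cells in the Nes and Ncam1 levels was not tested. The Zic2 call ended when any 1 of the 4 libraries was left out (edgeR adjusted p = 0.0634 to 0.121). The Pax3 call ended without ysE replicate B (edgeR adjusted p = 0.0565) or mesoderm replicate A (0.0862, log2 -2.81), and its log2 value was -4.58 without mesoderm replicate B, again on 2 counts. The number of genes called was 2 without ysE replicate B (17.8% of transcripts) and 2 without mesoderm replicate A (16.4%). With only these 4 libraries in the fit, 7 genes passed (Pax6 and Zic1 were removed by the filter), where 60.3% of transcripts did, among them Tubb3 (log2 1.91, edgeR adjusted p = 0.00472), Map2 (1.60, 0.0141) and Sox1 (1.80, 0.0406), all higher in mesoderm.

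The liver libraries differed from each other. Liver replicate A had more than replicate B of Pax6, Nes, Tubb3, Zic1, Pax3, Ncam1 and Map2, the 7 genes detected in liver, where 41.7% of transcripts were higher in A. The 13 neuron genes of the list described below summed to 16.2 RPKM in replicate A and 4.88 in replicate B. The 14 neural progenitor genes summed to 126.9 and 127.4, of which Vim alone gave 110 and 116. The other progenitor genes detected in liver were each higher in replicate A, among them Sox2 (1.399 and 0.011 RPKM), Prom1 (5.67 and 4.76) and Dll1 (2.02 and 0.956). The 11 genes of anterior neural patterning summed to 1.89 and 1.97. The erythroid list, in turn, summed to 2160 in A and 3185 in B. What these differences contribute to the comparisons with liver was not tested.

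Between d10 and d15 none of the 9 genes differed by edgeR's test without regard to clone, and none of 22452 transcripts did (0%). At an unadjusted p below 0.05 edgeR gave 304 transcripts (1.35%), of the 9 genes only Nes (log2 -0.84 ± 0.32, unadjusted p = 0.0463, lower in both clones), and DESeq2 called 17 transcripts (0.0757%) and none of the 9 genes at an FDR of 5%. The clones moved in opposite directions for 6 of the 9 genes (Pax6, Sox1, Zic1, Zic2, Tubb3 and Map2), as 41.9% of all transcripts tested did. Pax3 and Nes were lower at d15 in both clones, to 0.700 and 0.692 times the d10 RPKM for Pax3 and 0.487 and 0.642 times for Nes. Ncam1 was higher in both, at 1.30 and 1.63 times.

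The widest changes were in JN. Zic1 was 7.99 times as high at d15 as at d10 in JN, from 35 to 302 counts, and 0.922 times in A9. Tubb3 was 0.318 times as high in JN and 1.71 times in A9, and Zic2 0.468 and 1.03 times. Pax6 was 2.27 times as high at d15 in JN and 0.875 times in A9. Map2 was 1.91 times as high in A9 and 0.818 times in JN, and Sox1 1.23 and 0.777 times. With 1 library per clone and day there is no replicate within a clone, and these ratios have no test.

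**Figure D3:**
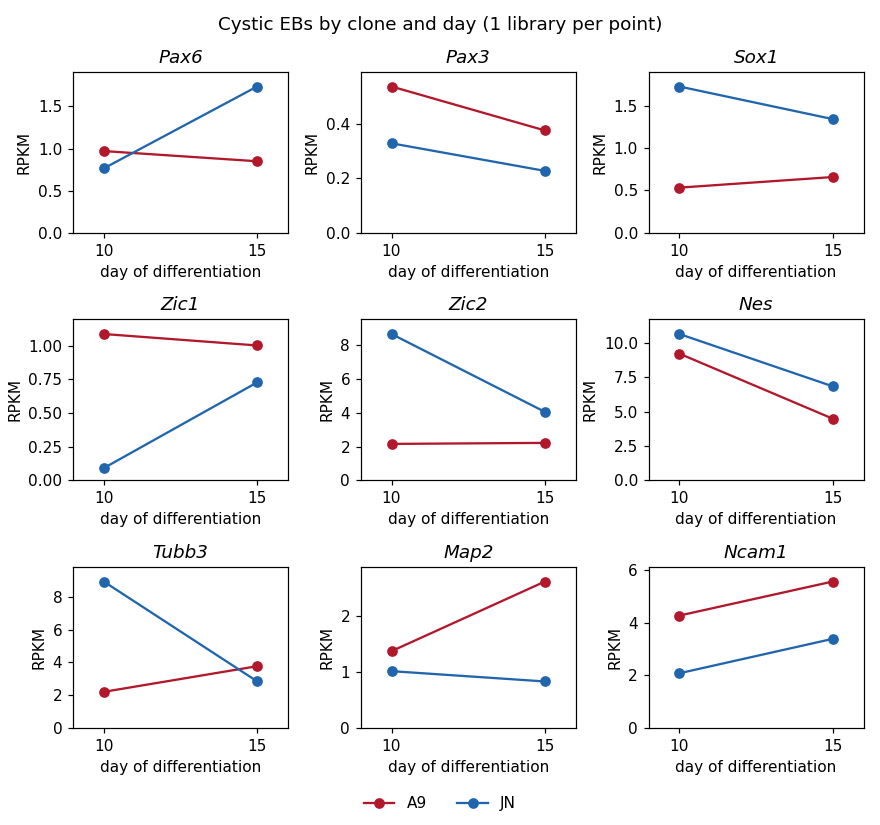
RPKM of the 9 genes (y axis) in cystic EBs at day 10 and day 15 of differentiation (x axis), red for clone A9 and blue for clone JN, with 1 library per point and lines that join the days of a clone. Pax3 and Nes were lower and Ncam1 higher at d15 in both clones, and the other 6 genes moved in opposite directions.

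Between the clones, none of the 9 genes passed edgeR's test, where 7.9% of transcripts were higher and 4.64% lower in JN, and 4 had an unadjusted p below 0.05, as 32.4% of transcripts had. The libraries of both days served as replicates of a clone, so these p-values measure the spread between days and not between clones of a genotype. Clone and library protocol cannot be told apart here. Sox1 (JN over A9, log2 1.30 ± 0.36, edgeR adjusted p = 0.0649) and Zic2 (1.49 ± 0.42, 0.0679) were nominally higher in JN, and Ncam1 (-0.94 ± 0.29, 0.0860) and Map2 (-1.19 ± 0.40, 0.102) nominally lower. DESeq2 called these 4 genes and 24.6% of transcripts. With day as a block, which pairs the clones, edgeR called Ncam1 as lower in JN (log2 -0.95, edgeR adjusted p = 0.0292) and 18% of transcripts. At both days Sox1, Zic2 and Nes were higher in JN and Pax3, Zic1, Ncam1 and Map2 higher in A9, 7 of 9 genes with the same sign at both days as 71.7% of transcripts had. Of 5 pluripotency genes, Nanog alone passed between the clones. Nanog was at 30.9 and 23.9 RPKM in JN and 3.20 and 3.61 in A9, and Zfp42, which did not pass, at 29.5 and 21.1 against 7.73 and 12.6 (edgeR adjusted p = 0.0660). Pou5f1 was at 76.8 and 39.1 RPKM in JN and 53.4 and 64.6 in A9 (edgeR adjusted p = 0.900). Their part in the Sox1 and Zic2 levels was not tested.

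The reads of these genes were spread over their exons. Of 197 exon parts annotated for 8 of the genes (none for Sox1), 72.1% to 84.3% had at least 1 read in a cystic EB library, with a mean of 78.6% ± 5.33 (SD, n = 4). Pax6 had reads in 40 to 58 of 68 parts in cystic EBs and in 1 of 68 in E9.25 ysE replicate A, where 6 reads fell on it. Map2 had reads in 50 to 55 of 68 parts in cystic EBs and in 12 in that ysE library. All 9 parts of Nes and all 4 of Tubb3 had reads in every cystic EB library. The other E9.25 ysE exon file held only zeros and was not used. The transcripts of Pax6, Pax3, Ncam1 and Map2 that were not chosen gave the same calls as the chosen ones in the tissue comparisons.

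Neighbouring parts of the neural programme, relatives of the 9 genes and surface ectoderm were read from 8 lists of genes, at the same thresholds. Named are mostly the most abundant genes of each list in cystic EBs and some of those that were lower there. Six3, Rax, Dcx, Snap25 and Sox10 were chosen after their values were seen. As given above, 10.8%, 27.1%, 24.6% and 13.9% of all transcripts were higher in cystic EBs over E12.5 ysE, E9.25 ysE, liver and mesoderm, and list counts are to be read against these shares. Shares close to them were those of neural tube patterning over E12.5 ysE, of neurons and of the relatives of the 9 genes over liver, and of surface ectoderm over mesoderm, and the shares of neural crest over liver and of proneural factors over E12.5 ysE lay below. Cystic EBs were higher for 7 of 14 neural progenitor genes over E12.5 ysE, 13 over E9.25 ysE, 9 over liver and 9 over mesoderm, and lower for none. Their most abundant members were Vim, an intermediate filament of progenitors and mesenchyme (145 to 286 RPKM in cystic EBs, 110 and 116 in liver, 299 and 343 in mesoderm), Sox2, a factor of neural and pluripotent cells (24.9 to 43.5 RPKM, at most 1.399 in any tissue), and Prom1, a surface protein of progenitors (6.79 to 20.2). Sox2 passed over E9.25 ysE (log2 7.27, edgeR adjusted p = 0.00240), liver (5.12, 0.00904) and mesoderm (8.05, 0.00407) and missed the 1% threshold over E12.5 ysE (0.0127). Vim did not differ from liver (edgeR adjusted p = 0.0612) or mesoderm (0.0938) past the threshold.

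Of 13 neuron genes, 6 passed as higher over E12.5 ysE, 12 over E9.25 ysE, 10 over mesoderm and 3 over liver, with Rbfox3, a nuclear protein of mature neurons, lower than in liver (log2 -2.35, edgeR adjusted p = 0.0144). The microtubule proteins Map1b and Stmn2 and the neurofilament Nefl led the list, at 6.15 to 23.9, 6.71 to 15.4 and 4.43 to 12.8 RPKM in cystic EBs. Stmn2 exceeded liver by 4.72 (log2, edgeR adjusted p = 0.000684) and Nefl by 3.10 (0.0272). Rbfox3 stood at 0.027 to 0.049 RPKM, Dcx, a protein of migrating neurons, at 0.016 to 0.339, and Snap25, a protein of synapses, at 0.143 to 0.453. Of the 6 proneural factors, which start neuron formation, 4 passed the filter on low counts. Of these, none was higher than in E12.5 ysE, 4 than in E9.25 ysE, 2 than in liver and 2 than in mesoderm.

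Among 11 genes of anterior neural patterning, 2 were higher than in E12.5 ysE, 6 than in E9.25 ysE, 6 than in liver and 7 than in mesoderm. Otx2, a factor of the forebrain and midbrain, of the epiblast and of the anterior endoderm, was at 6.81 to 15.98 RPKM in cystic EBs and at 0 to 0.048 in every tissue library. Six3 and Rax, which mark the forebrain and eye field, were at 0.038 to 0.396 RPKM in cystic EBs. Lhx2, more abundant at 0.443 to 1.749 RPKM, did not differ from liver past the threshold (log2 -0.27, edgeR adjusted p = 0.725). Neither did Gbx2 (-0.45, edgeR adjusted p = 0.449). Of 11 genes of neural tube patterning, 1 was higher than in E12.5 ysE, 6 than in E9.25 ysE, 8 than in liver and 5 than in mesoderm. The signal Shh of notochord, floor plate and gut was at 1.83 to 5.40 RPKM in cystic EBs and at 0.006 to 0.781 in the tissues. Irx3 was at 2.71 to 4.26 RPKM and at most 0.312 elsewhere. Foxa2, a factor of floor plate and endoderm, was lower than in E12.5 ysE (log2 -2.01, edgeR adjusted p = 0.00246) and E9.25 ysE (-1.396, 0.00483), and Lmx1a lower than in mesoderm (-2.68, 0.00458).

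Neural crest genes gave 2 of 8 higher than in E12.5 ysE, 6 than in E9.25 ysE, 3 than in mesoderm and 1 than in liver, where 1 was lower (24.6% of transcripts were higher than in liver and 20.9% lower). Sox10, which marks crest cells and their glia, was at 0.116 to 0.227 RPKM in cystic EBs and 0.593 and 0.212 in liver. Ets1, also a gene of vessels and blood, was lower than in mesoderm (log2 -1.89, edgeR adjusted p = 0.00373). It was higher than in E12.5 ysE (5.35, edgeR adjusted p = 0.000319) and E9.25 ysE (2.18, 0.00168). Of 10 relatives of the 9 genes, 2 were higher than in E12.5 ysE, 5 than in E9.25 ysE, 3 than in liver and 3 than in mesoderm. Tubb2b was at 14.4 to 18.5 RPKM in cystic EBs. Tubb2a was lower than in mesoderm (log2 -3.30, edgeR adjusted p = 0.000294) and E12.5 ysE (-1.73, 0.00961). Of 6 genes of surface ectoderm, the sister tissue of neural ectoderm, 2 were higher than in E12.5 ysE, 3 than in E9.25 ysE, 3 than in liver and 1 than in mesoderm. Krt18, a keratin of simple epithelia, was at 367 to 538 RPKM in cystic EBs. It was lower than in E12.5 ysE (log2 -1.22, edgeR adjusted p = 0.00915) and E9.25 ysE (-0.72, 0.0299) and higher than in liver (2.05, 0.00038).

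**Figure D4:**
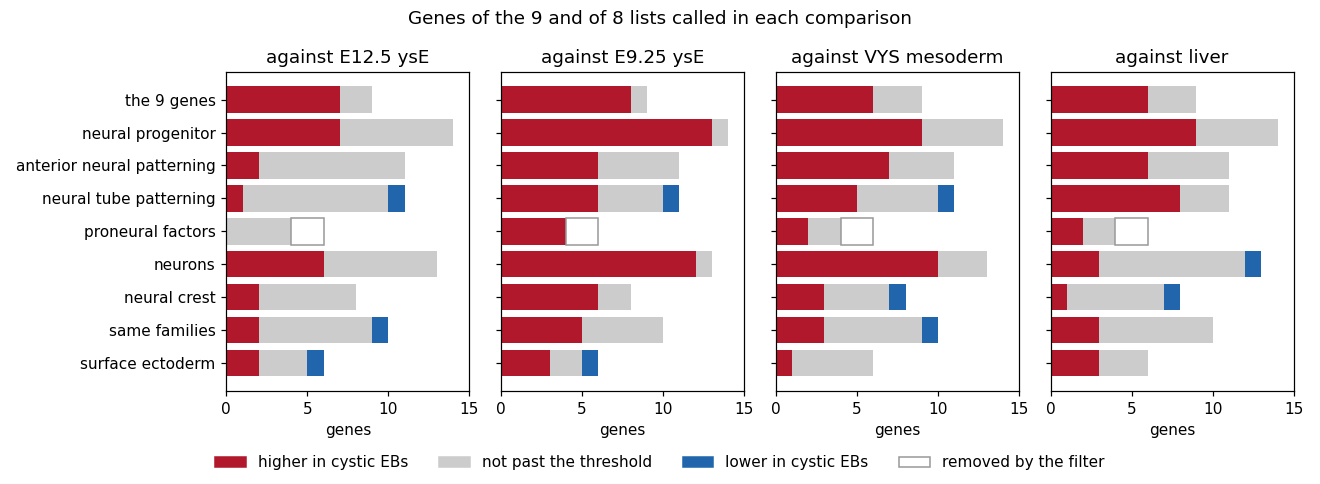
Number of genes (x axis) of the 9 genes and the 8 lists described (y axis) that were higher (red) or lower (blue) in cystic EBs than in each tissue, did not pass the threshold (grey) or were removed by the filter on low counts (white). Against E9.25 ysE 8 of 9 genes, 13 of 14 neural progenitor genes and 12 of 13 neuron genes were higher, and against liver 3 of 13 neuron genes were.

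Median log2 fold changes of the lists over E9.25 ysE ran from 2.54 (neural crest) to 5.45 (neurons), apart from the proneural factors, whose median was 5.40 with undetected genes at their lower bound on the TMM scale and 7.95 as fitted, against 0.17 for all transcripts. Over liver the neurons had a median of 0.81, the neural crest genes -0.12 and the neural progenitor genes 2.31, against 0.20. Of the lists of other lineages, 4 of 5 pluripotency genes, 4 of 5 heart genes and 4 of 5 genes of presomitic and somitic mesoderm (4 passed the filter) were also higher in the comparison with E9.25 ysE, where 27.1% of transcripts were. There 1 of 5 endothelial, 1 of 5 fibroblast and 1 of 6 skeletal muscle genes (4 passed the filter) were higher. All 5 erythroid and all 5 endoderm genes were lower, where 23.2% of transcripts were. Of the endoderm genes, the study had already reported Afp, Apoa2, Amn and Hnf4a as higher in ysE from these libraries, so their count is no independent result. Heart genes summed to 96.7 and 19.97 RPKM in A9 (d10 and d15) and 11.1 and 263 in JN. The 5 endothelial genes summed to 44.3 and 24.0 in A9 and 7.81 and 19.9 in JN.

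The transcripts whose levels ran most like those of each gene over the 11 libraries, by Pearson's r of log2(RPKM + 1), were a description only, since libraries of a tissue and clone are alike in many genes. Pax6 ran most like Irx3 (r = 0.979), Dynlt1b (0.974) and Gm14295 (0.971). Tubb3 ran most like Stmn2 (0.973), Npepps (0.968) and Nr0b1 (0.964), and Zic2 most like Kis2 (0.995), Dnmt3l (0.992) and Mcf2 (0.992). Map2 was nearest to Fst (0.959), Fabp7 (0.957) and Etv3 (0.948), Sox1 to Spp1 (0.970), Cry1 (0.965) and 9930104L06Rik (0.954), and Nes to Nbea (0.993), A930004D18Rik (0.984) and Peg12 (0.982). For Ncam1 the nearest were Lhfp (0.981), Ccdc85b (0.980) and Lix1l (0.979), for Pax3 Dlg5 (0.986), Homez (0.961) and Thap6 (0.953), and for Zic1 Nepn (0.978), Shoc2 (0.971) and Rbsn (0.958).

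CpG methylation was read in bisulfite libraries of E12.5 ysE, E12.5 liver and d15 cystic EBs, 1 library from each direction of the CAST and FVB cross (CxF and FxC). Those cystic EBs came from other ES clones than the RNA, and each direction is 1 clone. The libraries held 6695942 to 11554658 reads over CpGs, so reads were summed over 1 kb to either side of a start, or over a gene's whole length, and values under 5 reads left out. Intervals of counting error are wide for the starts, and the methylation values were not tested.

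At the starts, Tubb3 stood apart from the other genes. Methylated reads made up 83.3% and 92.6% (ysE, CxF and FxC), 67.4% and 84.1% (liver) and 87.04% and 91.1% (cystic EBs), on 27 to 90 reads a library. Those reads came from only 5 to 16 CpG calls a library within the window, so few CpGs carry each value. Cystic EBs were above liver, and ysE overlapped both. Sox1, whose start is shown above with 29 CpGs, had 10% for ysE (10 reads), 3.45% for liver (29 reads), and 7.69% and 0% for cystic EBs (13 and 16 reads), in those libraries with enough reads. Zic1 had 33.3% and 12% (ysE), 20% and 16.7% (liver) and 0% of 14 reads in the cystic EB library that could be read. At the Map2 start the tissues did not overlap, with 0% and 3.70% for ysE (6 and 27 reads), 37.5% for liver (8 reads), and 63.2% and 42.9% for cystic EBs (19 and 7 reads). Nes had 0% and 20% (ysE) and 10% (liver), and too few reads in cystic EBs. Of the Pax6 starts, the upstream one had 25% (ysE), 0% (liver) and 9.09% (cystic EBs), each in 1 library, and the downstream one 35.1% and 72.7%, 0% and 28.6%, and 60% and 21.1%, in the same order. Over all annotated starts the library medians were 40% and 42.9% (ysE), 60% and 62.5% (liver) and 68.8% and 75% (cystic EBs).

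For Pax3, Zic2 and Ncam1 the annotation used gives no strand, so both gene ends were read. The upper end of Pax3, which carries an H3K4me3 peak in VYS, had 0% and 25% for ysE (5 and 8 reads), 16.7% for liver and 75.8% and 52.6% for cystic EBs (33 and 19 reads). The upper end of Ncam1, next to another peak, had 15% and 50% (ysE), 72.7% and 68.4% (liver), and 100% and 50% (cystic EBs), the last on 5 and 6 reads. The lower end of Zic2 was read in 1 library each of ysE (45.5%) and liver (69.2%). Its upper end had 59.1% and 58.3% (ysE), 66.7% and 69.2% (liver), and 50% and 100% (cystic EBs). The lower end of Pax3 had 42.9% and 63.2% (ysE), 50% and 66.7% (liver) and 92.3% (cystic EBs), and that of Ncam1 100%, 92.6% and 66.7%, and 78.9%.

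Over whole genes more reads were available. Both cystic EB libraries were above both ysE libraries for Pax3, Nes, Zic1, Ncam1 and Map2 (5 of 9 genes), where 61.5% of all protein-coding genes with enough reads showed this and 2.94% the reverse. They were above both liver libraries for these and Pax6 (6 of 9), where 34.3% of genes showed this and 10.9% the reverse. None of the 9 was below in both libraries. The count over ysE was thus near that of all genes. Ncam1, the best covered with 1102 to 2048 reads a library, had 58.3% ± 1.09 (ysE, SD, n = 2), 78.1% ± 1.11 (liver) and 87.2% ± 4.19 (cystic EBs). Map2 had 50.96% ± 8.78 (ysE), 76.6% ± 3.498 (liver) and 86.6% ± 3.04 (cystic EBs) on 495 to 1054 reads. Pax3 had 64.6% ± 5.74, 67.3% ± 1.43 and 87.9% ± 1.68 in the same order, and Nes 31.7% ± 2.36, 47.1% ± 4.16 and 78.9% ± 1.57, the latter on only 10 to 34 reads. Zic1 differed in order, with 52.2% ± 3.12 (ysE), 20.5% ± 9.73 (liver) and 63.2% ± 0.7009 (cystic EBs).

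Zic2 (29.4% ± 0.79 in cystic EBs) and Sox1 (22.7% ± 5.60) were the least methylated over their length in cystic EBs, with 31.4% ± 5.49 and 35.8% ± 46.6 in ysE and 47.8% ± 30.3 and 20.9% ± 13.9 in liver, on 9 to 69 reads a library. Pax6 had 49.97% ± 2.82 in cystic EBs, 37.8% ± 18.4 in ysE and 40.3% ± 9.02 in liver, and Tubb3 83.9% ± 7.10, 79.8% ± 3.56 and 76.4% ± 15.1. Of all protein-coding genes the median was 71.9% and 66.7% (ysE), 78.997% and 81% (liver) and 86.1% and 81.7% (cystic EBs), CxF before FxC. At most 2 of the 9 genes were above that median in ysE, at most 1 in liver, and 4 and 3 in cystic EBs. The medians over all genes were thus also higher in cystic EBs than in ysE.

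**Figure D5:**
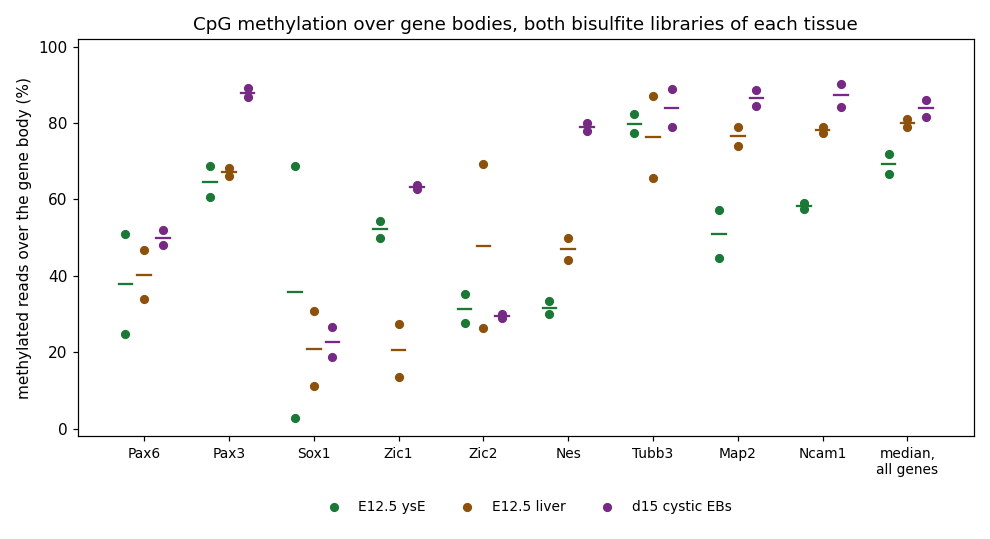
Share of methylated reads over the length of each gene (y axis, %) in both bisulfite libraries of E12.5 ysE (green), E12.5 liver (brown) and d15 cystic EBs (purple), with lines at the means. The last column is the median over all protein-coding genes in each library. Cystic EBs were highest for Pax3, Nes, Zic1, Map2 and Ncam1, and among the 9 genes in cystic EBs Sox1, Zic2 and Pax6 were the lowest.

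H3K4me3, a histone mark of active and poised gene starts, was deposited as peaks of a single E12.5 VYS chromatin sample, pooled from a pair of litters with endoderm and mesoderm together, against its input. Of the 6 genes with an annotated start, 3 (Nes, Zic1 and Map2) had a peak within 1 kb of it, where 45.5% of all annotated starts had one. Pax3, Zic2 and Ncam1, read at both gene ends, each had one within 1 kb of 1 end. Reading both ends gives a gene more than 1 chance of a peak, and the share over the ends of all genes was not computed. The peaks at Nes, Map2 and Pax3 covered the start or end itself, and those at Zic1, Ncam1 and Zic2 lay 242, 124 and 680 bases away. Ncam1 alone had a peak above the median score of all peaks, 863 as given by the peak caller, with a score of 3100 and a length of 2640 bases. The others scored 303 (Pax3), 209 (Nes), 149 (Zic1), 110 (Map2) and 58.1 (Zic2). The nearest peak to Pax6 was 6019 bases from its upstream start, and Tubb3 and Sox1 had none within 31059 and 275621 bases. Ncam1 and Nes were the genes with most RNA in VYS mesoderm, and the peaks do not say which layer they come from.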

How the data were processed

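RNA-seq reads were aligned by the authors with GSNAP to mm10. The authors deposited raw counts per RefSeq transcript and RPKM per transcript, made with custom scripts and RSeQC, and counts per exon part. Strand settings and the treatment of reads matching several genes are not given in the sources used here. For bisulfite libraries, the files deposited by the authors give each CpG's methylated percent and read count, called with BisSNP at low coverage settings. For H3K4me3 the deposited peaks carry the score of MACS 1.4.2, called against input DNA.

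From the counts, edgeR 4.0.16 (R 4.3.3) was fitted to 11 libraries in 5 tissue groups, with TMM scaling and filterByExpr, which left 24858 transcripts and all 9 genes. glmQLFTest p-values were adjusted by Benjamini-Hochberg over all of them, at an FDR of 1% against E12.5 ysE, the threshold of the study, and 5% otherwise. Each SE was derived as the absolute log2 fold change divided by the square root of the test's F statistic. Day and clone were compared in the 4 cystic EB libraries alone (22452 transcripts). The scripts were tested on simulated data. RPKM served for levels. Methylated reads were summed within 1 kb of a start or over a gene, with at least 5 reads. Peaks were assigned within 1 kb. Alternatives were DESeq2 1.42.0, RLE scaling, no filter, summed transcripts, fits of only the compared groups, of 1 protocol or with a replicate block, leaving out each library, and other windows, read minimums and peak limits.

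The genes and lists were chosen with earlier results of these data known. Named from the lists were up to 3 genes with the highest mean RPKM in cystic EBs and some of those found lower (a few genes are not reported here), and for likeness the 3 transcripts of highest correlation with a mean of at least 1 RPKM. Replicates A and B of cystic EBs are clones A9 and JN, so the letter pairs d10 with d15, whose deviations from the group means correlated at 0.609 across transcripts. For the other groups the labels do not say whether libraries of the same letter are pairs. Whether a letter joins E9.25 ysE and mesoderm of the same litter is thus not known, and their deviations correlated at -0.078. Apart from pooled litters and clones, nothing says that replicates are independent, and p-values then measure the spread between these libraries. The repeat table, and 1 exon file of zeros, were not used. Counting intervals cover counting error only.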

Additional observations from a re-analysis of the deposited data

Results flagged for a closer look

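For 6 of the 9 genes the cystic EB clones moved in opposite directions between d10 and d15, as 41.9% of all transcripts did. As log2 ratios of RPKM (d15 to d10), Pax6 had -0.19 in A9 and 1.18 in JN, and Zic1 -0.12 and 2.998. Sox1 had 0.30 in A9 and -0.36 in JN, Tubb3 0.78 and -1.65, Zic2 0.0402 and -1.10, and Map2 0.93 and -0.29. Each value rests on 1 library per clone and day, the difference between the clones was not tested, and clone and library protocol cannot be told apart.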

How the results depend on the processing

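With DESeq2, RLE scaling, no filter on low counts or counts summed over transcripts, 7 to 8 genes were called against E12.5 ysE (20% to 35.1% of transcripts), 8 to 9 against E9.25 ysE (42.6% to 54.8%), 6 against liver (38.4% to 50.3%) and 6 to 7 against mesoderm (24% to 36.8%). Fits of only the compared groups gave 2 genes against E12.5 ysE (8.3% of transcripts) and 7 between mesoderm and E9.25 ysE (60.3%). Such fits gave 9 genes against E9.25 ysE (46.1%), 4 against liver (37.6%) and 6 against mesoderm (23%). Between the clones, DESeq2 called 4 genes (Sox1, Zic2, Ncam1, Map2) and 24.6% of transcripts, and edgeR without a filter 2 (Sox1, Zic2) and 13.4%. The cause of these differences was not tested. Leaving out 1 library gave 6 to 7 genes against E12.5 ysE (20.5% to 25.3% of transcripts), 6 to 8 against E9.25 ysE (30.9% to 52.3%), 4 to 7 against liver (26.9% to 48.5%), 3 to 8 against mesoderm (10.2% to 31.6%), 2 to 3 between mesoderm and E9.25 ysE (16.4% to 19.8%), 0 between days (0%) and 0 to 2 between clones (2.35% to 11.8%), so the shares of all transcripts moved too.

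With clone as a replicate block, 0 genes were called between days, and with day as a block 1 (Ncam1, lower in JN) between clones, with 18% of transcripts. A block by replicate letter, which is not known to pair libraries between tissues, gave 8 genes higher than in E9.25 ysE (53.7% of transcripts called), 6 higher and 1 (Ncam1) lower than in liver with 48.2% of transcripts called, 6 higher than in mesoderm (33.3%), and 5 between mesoderm and E9.25 ysE (33.4% of transcripts).

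Directions that turned when 1 library was left out were all of differences that had not passed. Log2 values between days then ran from -0.84 to 0.88 for Sox1, -1.45 to 0.60 for Tubb3, -0.31 to 3.23 for Zic1, -1.51 to 0.52 for Zic2, -0.0076 to 1.1042 for Ncam1 and -0.63 to 1.21 for Map2. Between clones they ran from -0.26 to 0.80 for Pax6, -0.12 to 0.86 for Nes and -0.21 to 1.56 for Tubb3. Against liver they ran from -1.02 to 0.11 for Nes and -0.0556 to 1.21 for Map2, and for Pax6 between mesoderm and E9.25 ysE from -0.74 to 0.28.

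The median methylation over the annotated starts, without the gene ends of Pax3, Zic2 and Ncam1, was 22.5% in ysE. There it was 2.63% within 500 bases, 32.5% within 2 kb, 35.8% with at least 10 reads, 18.5% with no minimum, and 20% to 25% with 1 library. In liver it was 18.8%, 6.02% within 500 bases and 15% to 22.6% with 1 library, and in cystic EBs 40.5%, and 21.1% to 60% with 1 library. In each cystic EB library this median was the value of the downstream Pax6 start. A peak over a start or gene end itself was found for 3 genes (the starts of Nes and Map2 and an end of Pax3). A peak above the median score was found for 1 gene, near an end of Ncam1. The shares of all annotated starts under these limits were not computed. Of exon parts, 54.4% had at least 5 reads. Start methylation is limited by its few reads, and the comparison with E12.5 ysE by its single library.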
